A study of Mus musculus with 4 samples.

Results

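The heat-shock chaperones described here are Hspa1a, Hspa1b, Hspa8, Hspa5, Hsp90aa1, Hsp90ab1, Dnajb1, Hsph1 and Hspb1, together with Hsf1, the transcription factor that switches many of them on. These 10 genes were given by name, and every array probe set whose annotation named a single one of them was taken. That gave 22 probe sets of 45101 for 8 of the 10 genes, and 8 of the 18193 genes with a probe set of their own name. Hsp90ab1 and Hsf1 had no probe set named for them in the annotation and were not analysed here. A gene was read from its brightest probe set by the mean of the 4 arrays, and the others are given beside it.

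The cells were haematopoietic stem cells of the bone marrow, taken from mice with a transgene in which N-myc is fused to mCherry, a red fluorescent protein, so both groups hold the fusion gene. Cells negative for lineage markers and CD48 and positive for Sca-1, Kit and CD150 were parted by mCherry into N-myc high and N-myc low cells, went into Trizol without culture or treatment, and gave 5 ng of total RNA each for amplification and hybridisation. Each fraction was measured for mouse 1 and for mouse 2, so a group has 2 arrays. The labels name no age, sex or strain and no promoter for the fusion gene.

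Chaperones bind unfolded stretches of other proteins and keep them from clumping until they fold. Hsp70 proteins do so in cycles of ATP hydrolysis that J-domain partners such as Dnajb1 start and nucleotide exchange factors such as Hsph1 end, and Hsp90 takes over part-folded clients, many of them kinases and receptors. In the resting cell Hsf1 is held inactive. Heat and other damage to proteins release it, and it then binds heat-shock elements, repeats of a short motif in alternating orientation, before Hspa1a, Hspa1b and other target genes. Hspa5, also called BiP, sits in the endoplasmic reticulum and answers instead to the unfolded protein response. Myc proteins raise protein synthesis, which gives chaperones more new chains to fold.

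The sequences before the start sites of 3 members are shown because the first 2 genes moved together on these arrays and the third did not move with them. Each run holds the 250 bases before the annotated start, 5′ to 3′ on the gene's own strand, from RefSeq on GRCm38.p6. Hspa1a (chr17:34972157-34972406) and Hspa1b (chr17:34959239-34959488) lie on the minus strand, and Hspa5 (chr2:34771840-34772089) on the plus strand. Capitals mark a heat-shock element of 2 units in Hspa1a and Hspa1b and an endoplasmic reticulum stress element in Hspa5.
Hspa1a: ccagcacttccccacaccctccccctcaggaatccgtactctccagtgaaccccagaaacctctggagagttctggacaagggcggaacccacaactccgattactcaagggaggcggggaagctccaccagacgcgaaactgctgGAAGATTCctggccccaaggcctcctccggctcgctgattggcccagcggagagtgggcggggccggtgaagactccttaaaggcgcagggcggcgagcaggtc
Hspa1b: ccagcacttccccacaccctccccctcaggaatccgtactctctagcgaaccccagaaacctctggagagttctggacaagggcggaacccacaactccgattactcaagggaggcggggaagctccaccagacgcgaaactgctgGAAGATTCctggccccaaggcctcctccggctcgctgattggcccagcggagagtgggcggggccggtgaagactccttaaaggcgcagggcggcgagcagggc
Hspa5: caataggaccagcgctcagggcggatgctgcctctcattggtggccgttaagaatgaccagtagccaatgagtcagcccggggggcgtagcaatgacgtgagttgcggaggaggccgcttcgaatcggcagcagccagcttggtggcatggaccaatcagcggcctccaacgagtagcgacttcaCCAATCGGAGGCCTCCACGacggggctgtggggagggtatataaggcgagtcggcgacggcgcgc

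The windows of Hspa1a and Hspa1b were equal at 247 of 250 bases (98.8%). Counted from 1 at the 5′ end of the window and with the Hspa1a base first, they differed by C44T, T47C and T249G, so the element GAAGATTC, which starts 104 bases before the start site of each gene, was the same in both. The 2-unit motif was searched as GAANNTTC or TTCNNGAA, each of which reads the same on both strands, in the full windows of 250 bases before to 50 after the start, and 15.1% of all 32851 windows held it. Hspb1 held it at 97 and at 117 bases before the start. The 3-unit form, GAANNTTCNNGAA or its reverse complement TTCNNGAANNTTC, contains the 2-unit motif and was in 0.603% of windows. Among the members it was in those of Hsph1 alone, as TTCTGGAAAGTTC. That match lay after the start site, from base 37 for 1 annotated start and from base 16 for the other. Before these starts Hsph1 held the 2-unit match TTCTCGAA, at 33 and at 54 bases. The endoplasmic reticulum stress element was searched as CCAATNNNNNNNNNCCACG on both strands and was in 0.119% of windows, Hspa5 among them, where it started 65 bases before the start site. The windows of Dnajb1 held none of the 3 motifs. A match describes letters and is not a measured binding site. Windows for 6 of the 10 members were in the table.

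The arrays had median log2 intensities of 5.26 to 5.32, and having so few of them limits the precision. Mycn, the gene behind the sort, was at 10.48 and 10.39 in N-myc high (mouse 1 and mouse 2, the order used throughout) and at 9.44 and 9.65 in N-myc low. Xist, which is transcribed from the inactive X chromosome, was at 11.38 and 11.10 on the arrays of mouse 1 and at 3.84 and 3.70 on those of mouse 2, while the Y-linked Eif2s3y lay between 8.43 and 9.67 on all 4 arrays. The samples labelled mouse 1 thus carried both female and male transcripts, and whether they hold a single animal cannot be told from the labels. The 3′ signal of Gapdh exceeded its 5′ signal, a measure of RNA quality, by 1.43 and 1.40 on the log2 scale for mouse 1 (N-myc high, then low) and by 1.50 and 1.62 for mouse 2. For actin the same measure showed no 3′ excess, at -0.19 and -0.28 for mouse 1 and -0.09 and -0.19 for mouse 2. Of 6 measured stem cell markers, 4 were higher on both N-myc high arrays, and Kit, on which the cells were sorted, averaged 10.23 in the high fraction against 10.36 in the low one. All 7 measured granulocyte and monocyte markers were lower on both N-myc high arrays, with list medians of 10.25 and 10.43 in the high fraction against 10.56 and 10.72 in the low fraction. Both N-myc high arrays were above both low arrays for 2 and below for 1 of 8 macrophage markers, for 2 and 0 of 7 B cell markers, 0 and 3 of 7 T and NK cell markers, 1 and 2 of 6 erythroid markers and 2 and 4 of 7 megakaryocyte markers. Over all genes, both N-myc high arrays were above both low arrays in 15.6% and below in 20.8%. Counts of so few markers near these shares are not read as shifts. Whether cells of these kinds had a part in any chaperone value was not tested.

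None of the 8 measured heat-shock chaperones passed the test between N-myc high and N-myc low cells. Hspa5 was the only one of the 8 genes with both N-myc high arrays above both N-myc low arrays, and Dnajb1 the only one with both below. With limma, 0 of the 8 had an adjusted p under 0.05, as did 0 of all 18193 genes (0%), and at an unadjusted p under 0.05 there were 0 of the 8 against 1148 genes in all (6.31%). Over all genes, the N-myc high arrays were both above the low ones in 15.6% and both below in 20.8%, so 1 of 8 in each direction (12.5%) is near or under the background. The median difference of the 8 was -0.13 on the log2 scale, beside -0.03 over all genes. It was -0.26 within mouse 1 and -0.09 within mouse 2. Over the mean of each gene's probe sets the median was 0.0030, and it turned to 0.063 without N-myc high mouse 1 and to 0.13 when N-myc low mouse 2 was left out. Within both mice, 1 of the 8 genes was higher in N-myc high cells and 5 were lower, and 2 had opposite signs, where 23.2% of all genes were higher and 29.7% lower. In bulk RNA, fewer cells of a kind and less RNA per cell cannot be told apart. The labels do not say how the mice relate beyond their numbers, and 2 against 2 arrays allow an exact two-sided permutation test no p under 0.333, so the p values rest on the spread that limma pools over genes.

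**Figure D1:**
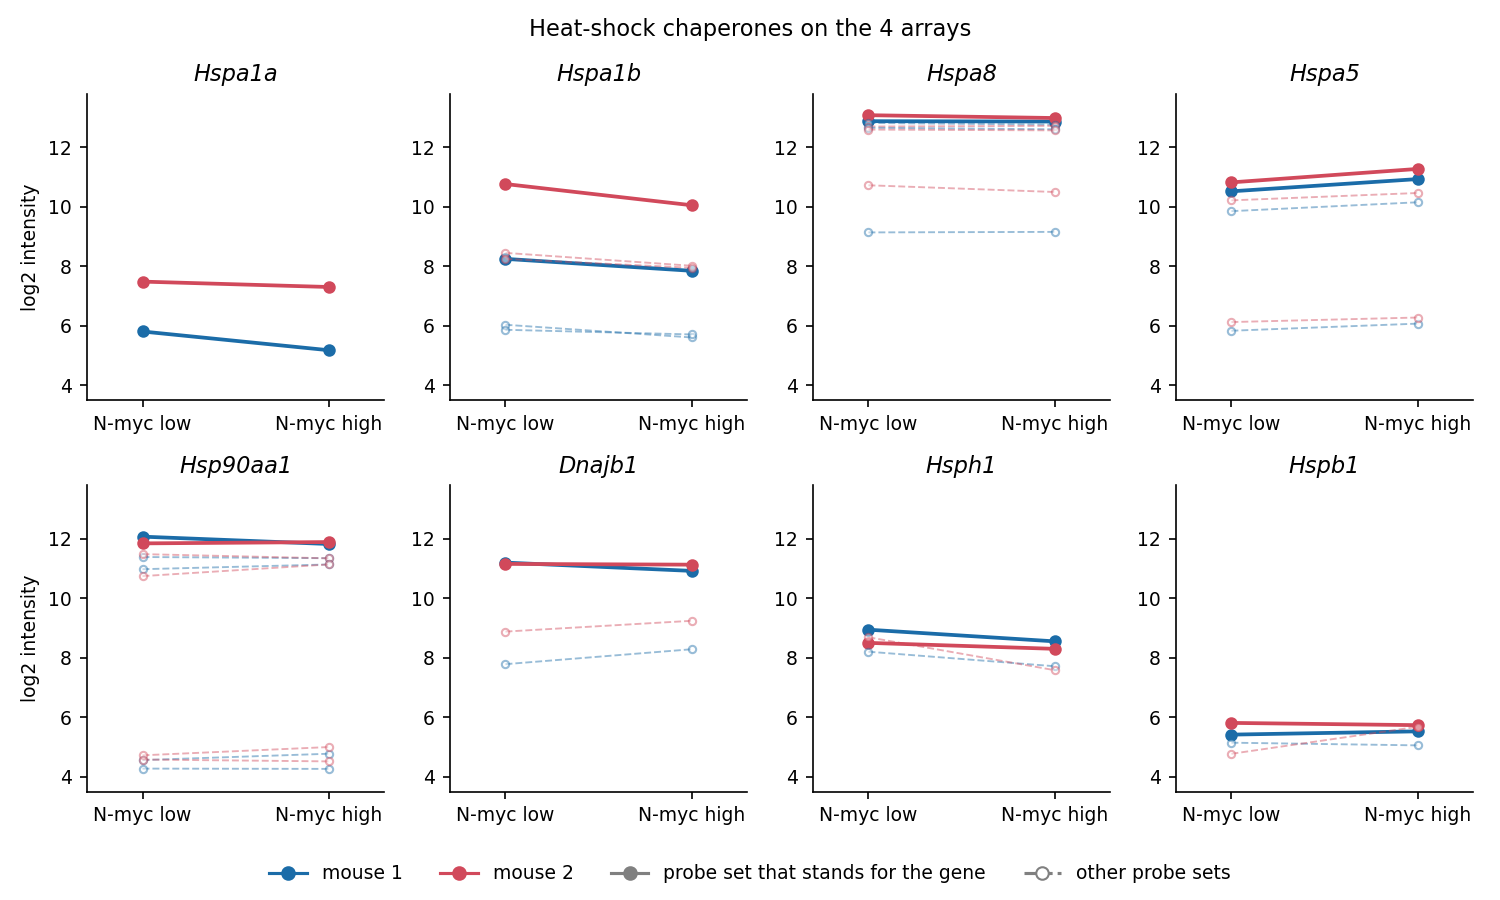
Log2 intensity (vertical axis) of the 22 probe sets of 8 heat-shock chaperones in N-myc low and N-myc high cells, with a line for each mouse and probe set; filled points and solid lines show the probe set that stands for the gene. The lines of Hspa1a and Hspa1b lie apart by mouse and fall from low to high in both mice, and those of Hspa5 rise in both.

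Hspa1a and Hspa1b encode nearly the same inducible Hsp70, the protein that cells make most strongly upon heat shock. The genes are neighbours on chromosome 17, and because their transcripts are near-identical in the coding part, the signal of a probe set named for one may come partly from the other. Hspa1a had a log2 intensity of 5.18 and 7.30 in N-myc high cells and of 5.81 and 7.48 in N-myc low cells. The 5.18 lay under the median of its array, 5.26, and how much of such a value is background is unknown. Hspa1b was at 7.85 and 10.05 in N-myc high cells and at 8.25 and 10.76 in N-myc low cells. For both genes the arrays of mouse 2 were high and those of mouse 1 low, whatever the N-myc level, and the N-myc groups overlapped.

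The difference of N-myc high minus low was -0.40 for Hspa1a, and its standard error (SE) was 0.92 (limma adjusted p = 0.954). For Hspa1b it was -0.56 (SE 1.13, limma adjusted p = 0.948). Both were lower in N-myc high within each mouse, at -0.63 and -0.18 for Hspa1a and -0.40 and -0.71 for Hspa1b. With the mouse as a block, which compares the fractions within a mouse, the SE fell to 0.22 for Hspa1a and 0.20 for Hspa1b, and neither passed (limma adjusted p = 0.793 and 0.781). The other Hspa1b probe sets, 1427127_x_at and 1427126_at, gave -0.43 and -0.23 and were also lower within each mouse. All 4 probe sets of this gene pair therefore had the same sign in both mice, at sizes under the unblocked SE. Since leaving out an array also unbalances the mice, the difference of Hspa1b was 0.55 without N-myc high mouse 1 and was 0.70 without N-myc low mouse 2. That of Hspa1a was 0.66 and 0.43. Without N-myc high mouse 2 it was -1.66 for Hspa1b and -1.47 for Hspa1a, and without the N-myc low array of mouse 1 it was -1.81 and -1.24.

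The gap between the mice was far larger than that between the N-myc groups. It was noticed after the values were seen and is given as a description of these 4 arrays, with no test. In N-myc high cells mouse 2 exceeded mouse 1 by 2.12 on the log2 scale for Hspa1a and by 2.20 for Hspa1b. In N-myc low cells the same gaps were 1.68 and 2.51. Over the 4 probe sets and both fractions the gap ran from 1.68 to 2.51, which is 3.19-fold to 5.71-fold. Only 45 of 18193 genes (0.247%) were at least 2-fold higher in mouse 2 in both fractions, and Hspa1a and Hspa1b were 2 of them. The opposite gap was met by 0.39% of genes and 0 of the 8. By any amount, 5 of the 8 (62.5%) were higher in mouse 2 in both fractions, this pair among them, beside 27.2% of all genes. Ordered by the mean gap, Hspa1b was at place 3 and Hspa1a at place 17 of 18193. The gap was there in both fractions, so it goes with the mouse number and not with the N-myc level. Anything else that same-numbered arrays shared, such as handling, cannot be told apart from the animals. The Xist values and the Gapdh values given above also differed between the mice, and the 7 marker lists had median gaps of -0.58 to 0.41 over both fractions. The part of these in the gap was not tested.

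**Figure D2:**
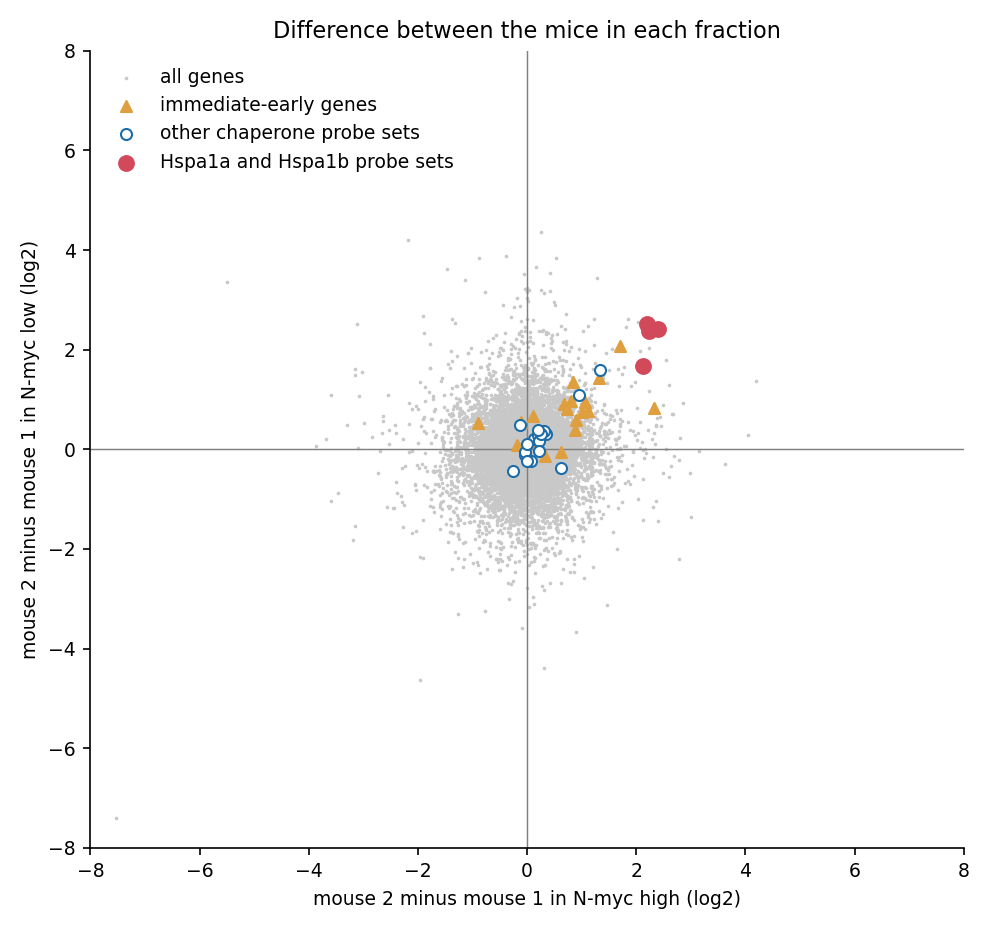
Mouse 2 minus mouse 1 (log2) in N-myc high cells (horizontal axis) against the same in N-myc low cells (vertical axis), with a grey point for each of 18193 genes. The 4 Hspa1a and Hspa1b probe sets (red) lie between 1.68 and 2.51 on both axes, and most immediate-early genes (triangles) lie above 0 on both.

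The pattern of Hspa1b, the member that varied most over the 4 arrays, was set against all other genes by the root-mean-square distance between values centred on each gene's mean. The nearest genes over the 4 arrays were 4930480K23Rik at a distance of 0.15, E030042O20Rik at 0.20 and Hspa1a at 0.31. On the mouse 1 arrays, with medians of 5.26 (N-myc high) and 5.32 (low), 4930480K23Rik was at 3.79 and 4.12. E030042O20Rik was at 3.56 and 3.49 there, and how much of such values is background is unknown. Every member other than Hspa1a lay at least 1.07 from Hspa1b. With 4 points, such likeness is a description only.

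Hspa8, or Hsc70, is the Hsp70 that cells hold at all times, and it works in routine folding and in uncoating clathrin vesicles. Its log2 intensity was 12.86 and 12.98 in N-myc high cells and 12.87 and 13.07 in N-myc low cells. The 4 arrays were close together, and the groups overlapped. The difference came to -0.05 (SE 0.19, limma adjusted p = 0.977). The probe sets 1420622_a_at and 1420623_x_at gave -0.01 and -0.04. The fourth, 1431182_at, differed by mouse instead, with 9.15 and 10.49 in N-myc high cells and 9.13 and 10.72 in N-myc low cells. Its gap between the mice of 1.34 and 1.58 was not seen with the other 3 probe sets of Hspa8, where it ran from -0.12 to 0.20. Probe sets of a gene can read different transcript forms, and which form 1431182_at reads was not determined here.

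Hspa5 was the member with the largest difference in the upward direction. Its log2 intensity was 10.93 and 11.27 in N-myc high cells and 10.51 and 10.82 in N-myc low cells. Both N-myc high arrays were above both N-myc low arrays, by a small margin between N-myc high mouse 1 and N-myc low mouse 2. N-myc high minus low came to 0.43, which is 1.35-fold (SE 0.23, limma adjusted p = 0.806). Within mouse 1 it was 0.41 and within mouse 2 0.45, and the values were nearly equal. The probe sets 1427464_s_at and 1447824_x_at were higher by 0.27 and 0.20 and also had the same sign within each mouse, but their groups overlapped. The difference stayed between 0.26 and 0.60 with any single array left out. Hspa5 differed between the mice by 0.34 in the high fraction and 0.30 in the low fraction.

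Hsp90aa1 encodes the stress-inducible cytosolic Hsp90. It was at 11.82 and 11.88 in N-myc high cells and at 12.07 and 11.84 in N-myc low cells, and N-myc low mouse 1 stood a little above the other 3 arrays. The difference came to -0.10 (SE 0.19, limma adjusted p = 0.943), and its sign was opposite in the mice (-0.25 and 0.04). The other 4 probe sets did not share a sign. Of these, 1438902_a_at gave -0.09 with both N-myc high arrays below both low arrays, and 1441827_x_at gave -0.04. In contrast 1437497_a_at and 1433251_at gave 0.28 and 0.25, each with both N-myc high arrays above both low arrays. Over the mean of the 5 probe sets the difference was 0.06, so no direction can be given for this gene.

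Dnajb1 encodes an Hsp40 that delivers clients to Hsp70 and also helps to shut Hsf1 off again. It was at 10.92 and 11.12 in N-myc high cells and at 11.19 and 11.15 in N-myc low cells. Both N-myc high arrays were below both low arrays, although mouse 2 differed by only -0.02. N-myc high minus low came to -0.15 (SE 0.19, limma adjusted p = 0.905). The other probe set, 1416756_at, had the opposite sign, with 8.28 and 9.24 in N-myc high cells and 7.78 and 8.88 in N-myc low cells. It gave 0.43 with an SE of 0.53 (limma adjusted p = 0.901 over all probe sets), and the mean of both probe sets gave 0.14. Like the fourth Hspa8 probe set it was higher in mouse 2, by 0.96 in the high fraction and 1.09 in the low fraction.

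Hsph1 encodes Hsp110, which exchanges the nucleotide on Hsp70 and helps to dissolve aggregates. It was at 8.55 and 8.30 in N-myc high cells and at 8.94 and 8.50 in N-myc low cells. N-myc high was lower within each mouse, and the groups overlapped through N-myc high mouse 1 and N-myc low mouse 2. The difference came to -0.30 (SE 0.24, limma adjusted p = 0.847). Its other probe set, 1423566_a_at, was at 7.71 and 7.58 in N-myc high cells and at 8.20 and 8.69 in N-myc low cells. Here the groups did not overlap. N-myc high minus low came to -0.80 (SE 0.24, limma adjusted p = 0.765 over all probe sets), and it was the only one of the 22 probe sets with an unadjusted p under 0.05, beside 6.37% of all probe sets. With the mouse as a block its unadjusted p was 0.052 in limma, and 0 of the 22 were under 0.05. Leaving out 1 array left 0 or 1 of the 22 there. Both probe sets of Hsph1 were lower in N-myc high within each mouse, and their mean differed by -0.55 (SE 0.17, limma adjusted p = 0.731).

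Hspb1 encodes Hsp27, a small heat-shock protein that holds unfolded proteins without ATP. It was at 5.53 and 5.73 in N-myc high cells and at 5.42 and 5.81 in N-myc low cells, and the groups overlapped fully. The difference came to 0.02 (SE 0.23, limma adjusted p = 0.997) and had opposite signs in the mice. The other probe set, 1422943_a_at, gave 0.41, the mean of 0.91 in mouse 2 and -0.09 in mouse 1, and the mean of both probe sets differed by 0.21. The intensity of Hspb1 lay near the median of all values, and no detection call was used, so how much of it is background is unknown.

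Over all 22 probe sets, both N-myc high arrays were above both low arrays for 3 (13.6%) and below for 3 (13.6%), where the shares over all 45037 probe sets other than controls were 14.4% and 22.1%. Within the mice, 6 of the 22 probe sets were higher in both, 11 lower in both and 5 of opposite sign, where 21.8% of all probe sets were higher in both and 31.3% lower. In the comparison of the mice, 5 of the 22 were at least 2-fold higher in mouse 2 in both fractions and 0 at least 2-fold lower, beside 0.386% and 0.564% of all probe sets. Of those 5, 4 belong to Hspa1a and Hspa1b and share much of their sequence, and the other is 1431182_at of Hspa8.

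**Figure D3:**
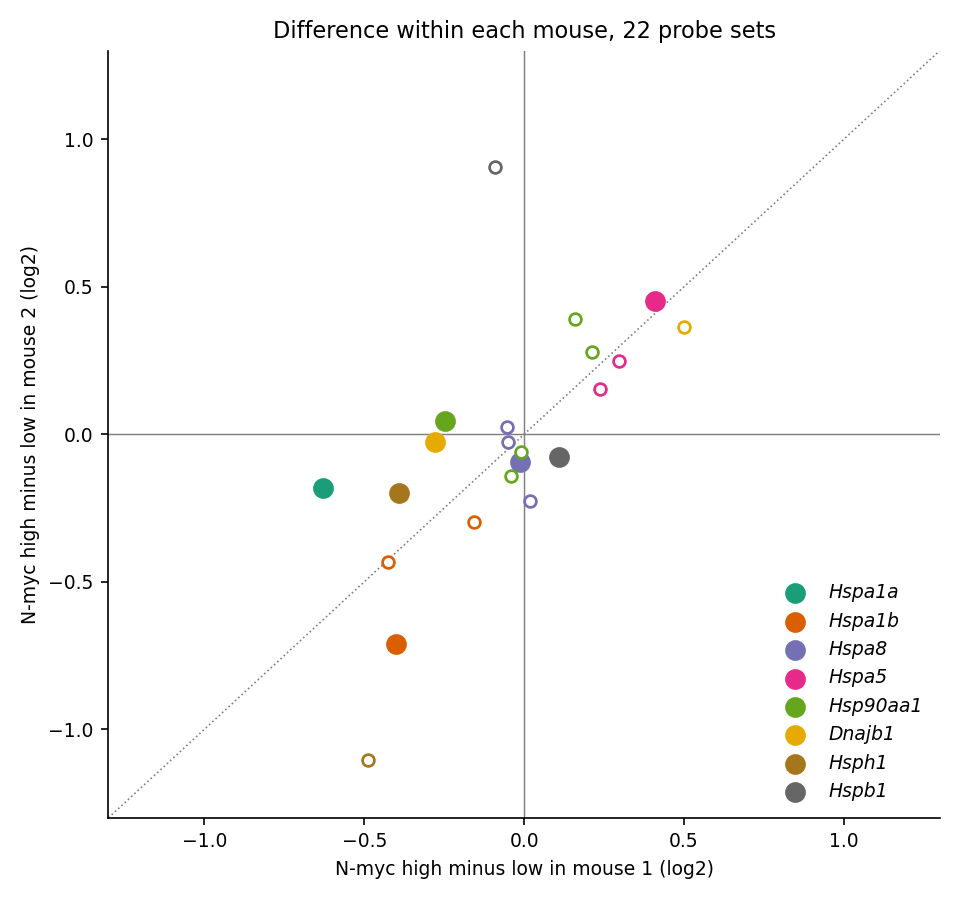
Difference of N-myc high minus low (log2) within mouse 1 (horizontal axis) and within mouse 2 (vertical axis) for the 22 probe sets; filled points stand for the gene, open points are its other probe sets, and the dotted line marks equal differences. The Hspa5 points lie above 0 on both axes, those of Hspa1a, Hspa1b and Hsph1 below 0 on both, and those of Hsp90aa1 on both sides of 0.

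The wider chaperone network was read from 8 lists with 88 genes, of which 86 were measured. With limma, 0 of the 86 passed at the adjusted threshold, and 1, the J-domain gene Dnajc1, had an unadjusted p under 0.05 (6.31% of all genes did). With the mouse as a block the unadjusted p of Dnajc1 was 0.076, and Cryab, at 0.021, was the only one of the 86 under 0.05, where 6.04% of all genes were. Both N-myc high arrays were above both low arrays for 15 of the 86 (17.4%) and below for 11 (12.8%), beside 15.6% and 20.8% of all genes, and the median difference was 0.02. The values that follow are log2 differences of N-myc high minus low, and none passed the adjusted threshold. Of the 10 other Hsp70 and Hsp110 genes, Hspa12b gave 0.46, Hyou1, an exchange factor for Hspa5, 0.49 and Hspa14 -0.23. The Hsp90 of the endoplasmic reticulum, Hsp90b1, gave 0.14 and the mitochondrial Trap1 -0.01. Among 18 J-domain genes, with a median of 0.10, Dnajc1 gave 0.52, Dnajb14 0.79 and Dnaja4 1.15, the mean of 2.23 in mouse 1 and 0.06 in mouse 2.

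Among 8 genes listed by name as small heat-shock proteins, Cryab, or alpha-B crystallin, gave -0.89, Hspb2 -0.50 and Hspb11 0.38. Whether each of them acts as a chaperone was not examined. Chaperonins, the barrel-shaped folding machines, had a median of -0.02 over 10 genes. The mitochondrial partners Hspe1 and Hspd1 gave 0.29 and -0.25, and Cct6a, a subunit of the cytosolic ring, -0.26. Over 19 co-chaperones and exchange factors the median was -0.02, with Bag3 at 0.68, the Hsp70-Hsp90 adaptor Stip1 at 0.38 and the ubiquitin ligase Stub1 at -0.25. Of the list of heat-shock factors and their binding protein 4 genes were measured, with Hsf2 at 0.27, Hsf4 at 0.02, Hsf5 at -0.0033 and Hsbp1, the binding protein, at 0.05, and Hsf2 had opposite signs in the mice (-0.54 and 1.09). Mean log2 intensities over the arrays were only 4.84, 4.32 and 2.77 for Hsf2, Hsf4 and Hsf5, and 4.84 for Cryab. How much of these is background is unknown. Genes of endoplasmic reticulum stress and folding, the setting of Hspa5, had a median of 0.13 over 15 genes. In that list the disulfide isomerase gene Pdia4 gave 0.84, the stress sensor gene Eif2ak3 0.97 and Sdf2l1, which works with Hspa5, -0.62, so the named genes did not all share the sign of Hspa5.

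**Figure D4:**
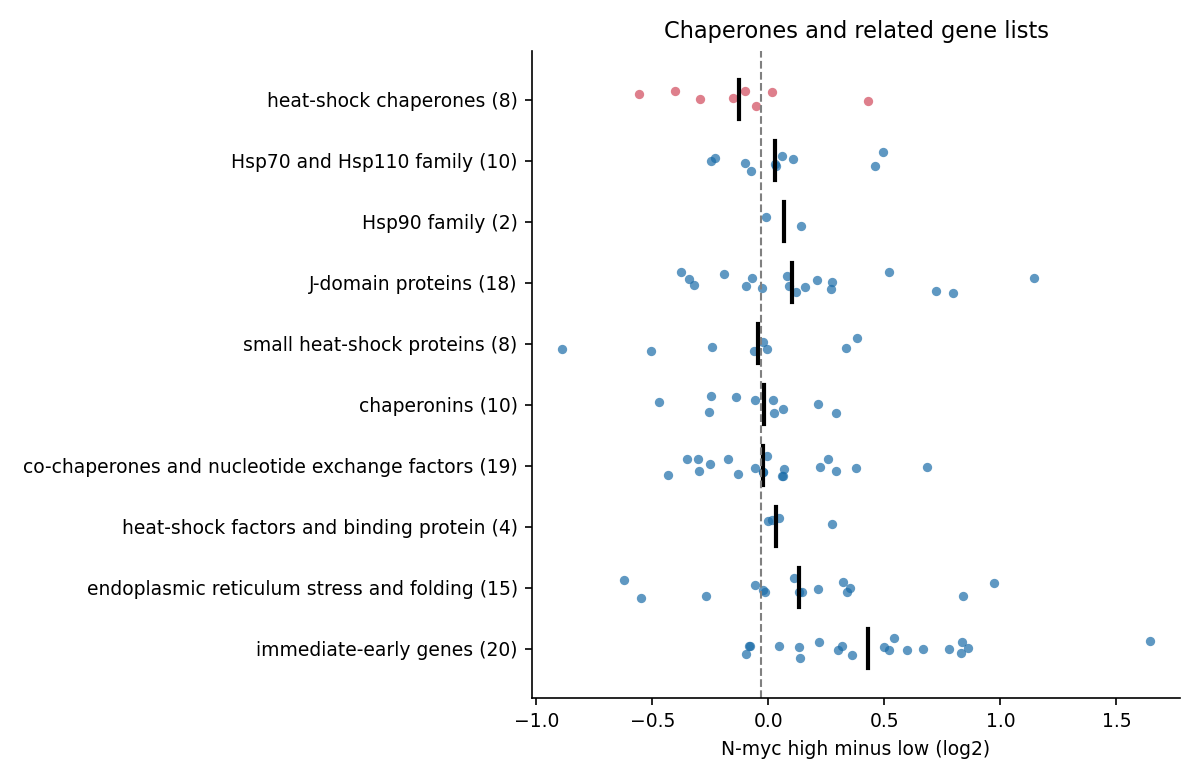
Log2 difference of N-myc high minus low (horizontal axis) for each gene of the heat-shock chaperones (red) and of the related lists (blue, with the number of measured genes); black bars are list medians and the dashed line is the median of all genes, -0.03. The chaperone lists centre between -0.13 and 0.13, and the immediate-early genes at 0.43.

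Immediate-early genes, which cells switch on within minutes of a stimulus, had the largest median of the lists read here besides the cell type markers, both between the mice and between the N-myc groups. Of 20 such genes, 15 were higher in mouse 2 in both fractions, where 27.2% of all genes were, and the median gap was 0.77 in the high fraction and 0.71 in the low fraction. Nr4a1 and Fosb, chosen after their values were seen, were at least 2-fold higher in mouse 2 in both fractions, with gaps of 1.70 and 2.08 for Nr4a1 and of 1.32 and 1.43 for Fosb. Of the 86 other chaperone network genes, 0 met that mark, and the median gap was -0.07 in the high fraction and -0.0034 in the low fraction. The nearest was Hspa1l, a further Hsp70 gene, with 0.77 and 1.98. Its mean log2 intensity over the arrays was only 4.59, and how much of that is background is unknown. By N-myc level, 14 of the 20 immediate-early genes were higher in N-myc high within both mice and 0 lower, beside 23.2% and 29.7% of all genes, and 0 passed the adjusted threshold in limma (2 at an unadjusted p under 0.05, where 6.31% of all genes were). With the mouse as a block 4 of the 20 were under an unadjusted p of 0.05 in limma (Maff 0.017, Klf4 0.022, Nr4a1 0.0032 and Egr1 0.030, of which Klf4, Nr4a1 and Egr1 are named for these values), and Dusp2 was at 0.054, beside 6.04% of all genes, and 0 passed the adjusted threshold. Their median difference was 0.43, with Maff at 0.83, Dusp2 at 0.78 and Jund at 0.60. Hspa1a and Hspa1b were lower in N-myc high within both mice, and whether they and the immediate-early genes differ in their response was not tested.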

How the data were processed

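Haematopoietic stem cells sorted by N-myc level were measured on 4 Affymetrix mouse arrays, 2 per group. The deposited values are log2 intensities per probe set. The tools in the submitters' processing notes are RMA, affy and limma, with no version. RMA equalises the arrays by quantiles, so it removes a shift shared by all genes. No build, chip definition or filter is stated. Names came from the platform annotation. Of 45101 probe sets, 34945 had 1 gene name, 932 had several, 9160 were unnamed and 64 were controls. The Entrez numbers of 34741 were found in the RefSeq table (GRCm38.p6).

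The brightest probe set by mean, 1 for each of 18193 genes, was fitted in limma 3.58.1 (R 4.3.3; lmFit, eBayes, default prior), with Benjamini-Hochberg adjustment over all genes and a threshold of 0.05. The 22 probe sets were also read from a fit over all probe sets. The labels number the mice, and the fit with the mouse as a replicate block is the alternative. Deviations of same-numbered arrays correlated at r = 0.0492 across genes. The script was tested on simulated data, where 0.3% of genes given a log2 change of 1 were recovered. The differences of the members were smaller than 1, and recovery at such sizes was not tested. A count of 0 therefore does not show that genes did not differ. Named genes were all members, Mycn, the 3 genes of smallest unadjusted p per list and the 3 nearest in pattern to the member that varied most. The members and lists were chosen with earlier results of these data known, and the comparison of the mice was added after the values were seen.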

Additional observations from a re-analysis of the deposited data

How the results depend on the processing

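Of 79 member differences recomputed under an alternative, 68 kept their direction and 11 reversed. Some of these could not reverse, so the count overstates how stable the directions were. The fit over all probe sets, the mouse block, leaving out the dimmer genes and other eBayes settings change only the SE and p. A direction could reverse only with the mean of probe sets, arrays centred on their medians or an array left out. With all 4 arrays in the fit, 0 reached the adjusted threshold in limma. Over the mean of a gene's probe sets the difference was 0.059 for Hsp90aa1 and 0.14 for Dnajb1, both reversed, and the median of the chaperones moved from -0.13 to 0.0030. With single arrays left out, where the lone array is assumed to vary like the other group, the differences ran from -1.47 to 0.66 for Hspa1a, -1.81 to 0.70 for Hspa1b, -0.15 to 0.047 for Hspa8, -0.21 to 0.012 for Hsp90aa1 and -0.18 to 0.21 for Hspb1, and the median from -0.15 to 0.13. The directions of Hspa5 (0.26 to 0.60), Hsph1 (-0.52 to -0.07) and Dnajb1 (-0.26 to -0.05) held there. Hspa1a reversed when N-myc high mouse 1 (0.66) or N-myc low mouse 2 (0.43) was left out, Hspa1b likewise (0.55 and 0.70), Hspa8 likewise (0.0057 and 0.047), Hsp90aa1 without N-myc low mouse 1 (0.012), and Hspb1 when N-myc high mouse 2 (-0.087) or N-myc low mouse 1 (-0.18) was left out. Omitting an array leaves the mice unbalanced, since each of these differences sets the mean of a group against the lone array of the other. Why the arrays differ was not tested. The replicate block on the mouse left 0 genes past the threshold and changed no adjusted call, while the counts at an unadjusted p under 0.05 moved from 1 to 0 of the 22 probe sets and from 3 to 5 genes of the lists. Counts past the threshold over genes, probe sets and lists were 0 under every alternative run, with 795 to 1512 genes at an unadjusted p under 0.05 when an array was left out. The fit over the mean of probe sets gave no count over probe sets. Detection calls were not used, so what low intensities such as those of Hspb1 hold above background is unknown.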
